A study of Mus musculus with 15 samples.

Results

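Expression of 10 genes that act in vessel growth and its response to oxygen was followed in mouse eyecups: the ligands Vegfa, Vegfb, Vegfc and Pgf of the vascular endothelial growth factor (VEGF) family, the angiopoietins Angpt1 and Angpt2, the inhibitors Serpinf1 and Thbs1, and the hypoxia regulators Hif1a and Epas1. They were chosen by name, were 10 of the 55421 genes listed in every count file, and all 10 passed the filter on low counts. Posterior eyecups without the neural retina (pigment epithelium, choroid and sclera) came from C57BL/6J mice aged 2.5 months, namely 4 WT mice, 6 mice with 1 FUN025 allele of Tmem135 (FUN025/+) and 5 mice with 2 such alleles (FUN025/FUN025). Tmem135 is a gene of mitochondrial and lipid homeostasis. The eyecups of each mouse gave 1 library, mice of both sexes were used and the sex of each was not labelled. No source restricts the mutation to a cell type, and levels are averages over all cells of the eyecup.

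VEGF ligands bind receptor tyrosine kinases on endothelial cells and drive their growth and permeability, and the pigment epithelium is known to secrete VEGF-A towards the choroid. Angiopoietin 1 activates the receptor Tie2 and stabilises vessels, while angiopoietin 2 can block or weaken that signal. Pigment epithelium-derived factor (the product of Serpinf1) and thrombospondin 1 (Thbs1) restrain vessel growth. The oxygen-regulated subunits HIF-1alpha (Hif1a) and HIF-2alpha (Epas1) are controlled mainly through the stability of the protein, which mRNA counts do not show.

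The HIF complexes bind DNA at short motifs with the core ACGTG or GCGTG. Both motifs were searched on both strands in the 250 bases before the start of RefSeq transcripts (GRCm38.p6), where 6 of the 10 genes had an entry. The window of Hif1a is shown because Hif1a carried the difference from WT that held under every alternative, and that of Vegfa because Vegfa is a textbook target of HIF. The windows lie at chr12:73907617-73907866 on the plus strand and at chr17:46032378-46032627 on the minus strand, and neither overlapped an annotated exon. Capitals mark the motif.
Hif1a: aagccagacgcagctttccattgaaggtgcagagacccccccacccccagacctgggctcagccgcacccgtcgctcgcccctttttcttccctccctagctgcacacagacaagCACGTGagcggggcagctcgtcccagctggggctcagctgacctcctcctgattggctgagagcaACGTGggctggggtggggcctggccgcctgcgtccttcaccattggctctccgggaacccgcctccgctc
Vegfa: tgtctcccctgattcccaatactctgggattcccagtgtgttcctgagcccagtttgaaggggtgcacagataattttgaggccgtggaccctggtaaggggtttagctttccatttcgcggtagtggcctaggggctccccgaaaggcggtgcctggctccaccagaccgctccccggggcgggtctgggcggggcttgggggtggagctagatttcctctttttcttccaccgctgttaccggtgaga
The Hif1a window held 3 matches, 2 of which were the overlapping strands of the palindrome CACGTG, and 6.58% of the 32851 promoter windows held at least 3. This Vegfa window held 0, which says only that these letters were not in these bases, and the window of a second Vegfa start held 2. The window of Vegfb held 2 matches, that of Serpinf1 held 1, that of Vegfc held 0, and the windows of Pgf held 0 and 1. Over all windows, 38.6% held at least 1. Unlike the 2 windows printed, those of the second Vegfa start, of Serpinf1 and of Pgf overlapped annotated exons, over all 250 bases for Pgf.

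Total counts were 18094977 to 20029919 in WT libraries, 10903183 to 13456349 in FUN025/+ libraries and 11053535 to 15038383 in FUN025/FUN025 libraries. Every WT library was deeper than every mutant library, so depth and genotype cannot be told apart. The 10 genes had between 102 and 17559 counts in a library, far above the floor of 3 counts, which was 0.15 to 0.28 CPM (counts scaled to a common library total) and covers counting error only. Tmem135 itself averaged 64.0 CPM in WT, 75.0 in FUN025/+ and 88.3 in FUN025/FUN025 eyecups, and a count over the whole gene does not show which allele was read. The tissue label was met by summed pigment epithelium markers of 19331 to 25430 CPM. Meanwhile 13 rod and cone markers summed to 103 to 2411 CPM, highest in WT mouse 2, and 12 striated muscle markers to 3143 to 10810 CPM. The median sum of the rod and cone markers was 610 CPM in WT, 171 in FUN025/+ and 229 in FUN025/FUN025 mice, with overlapping ranges. Their median log2 fold changes were -1.74 in FUN025/+ and -1.82 in FUN025/FUN025 against WT, with 0 of 13 called (13.7% and 14.0% of all genes).

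**Figure D1:**
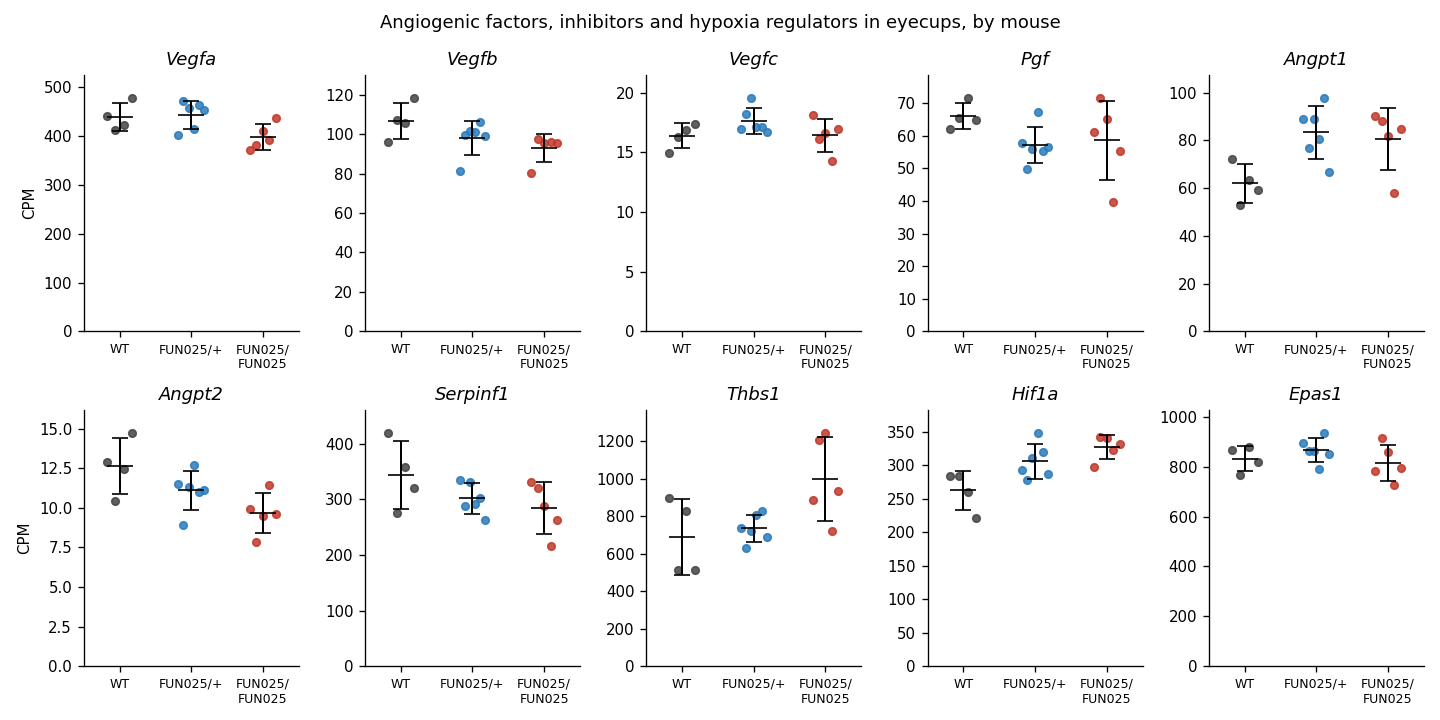
CPM of each of the 10 genes (linear axes from 0) in every mouse by genotype, with the mean and SD as a bar (n = 4 WT, 6 FUN025/+ and 5 FUN025/FUN025). In the Hif1a panel the 5 FUN025/FUN025 mice sit between 297 and 342 CPM, all above the WT mice, while in the other panels these groups overlap.

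Against WT, few of the 10 genes differed. Angpt1 was higher in FUN025/+ eyecups, and in FUN025/FUN025 eyecups Hif1a was higher and Angpt2 lower, by edgeR's quasi-likelihood test with an adjusted p under 0.05 over all 18979 genes tested. These calls were 1 of 10 in FUN025/+ against WT, where 13.7% of all genes were called (7.09% higher and 6.61% lower), and 2 of 10 in FUN025/FUN025 against WT, where 14.0% were called (7.03% higher and 7.02% lower). The share of the 10 genes was near the share of all genes in both comparisons. Between FUN025/FUN025 and FUN025/+ edgeR called 0 of 10, with 2 at an unadjusted p under 0.05 (Vegfa and Thbs1), and DESeq2 and limma voom also called 0, beside 0.522% of all genes by edgeR and 6.23% at an unadjusted p under 0.05. At that unadjusted p were 2 of 10 in FUN025/+ (28.8% of all genes) and 6 of 10 in FUN025/FUN025 against WT (28.6%). The groups failed to overlap for 0 of 10 genes in FUN025/+ against WT (10.9% of all genes) and for 1 of 10 in FUN025/FUN025 against WT (14.8%), and for 0 of 10 between the mutant genotypes (1.12%). The median log2 fold change of the 10 genes was 0.04 in FUN025/+ and -0.08 in FUN025/FUN025 against WT, beside -0.0023 and -0.0071 over all genes. The 2 comparisons share the WT mice.

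**Figure D2:**
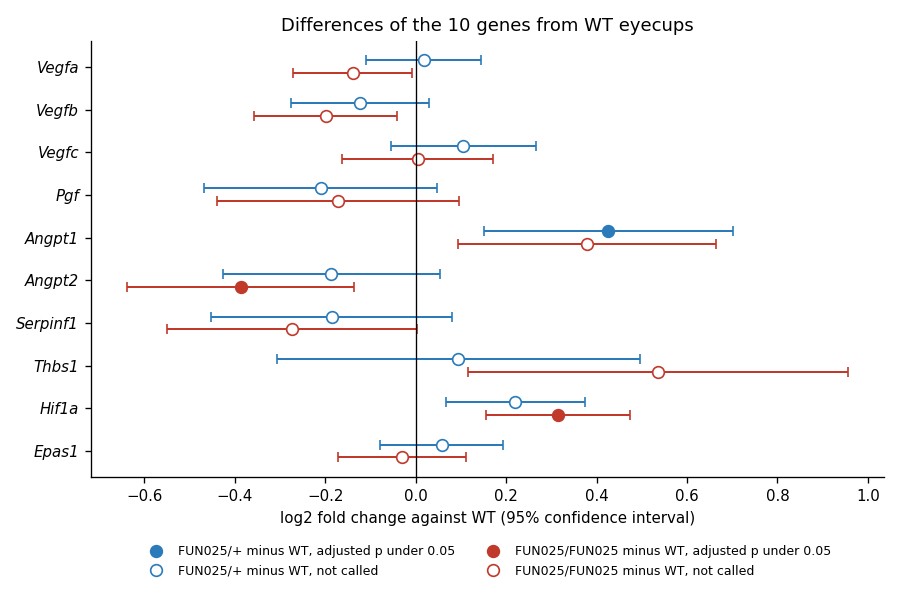
Fitted log2 fold change against WT (x axis) of each gene in FUN025/+ and FUN025/FUN025 eyecups, with 95% confidence intervals; filled points had an adjusted p under 0.05. Angpt1 in FUN025/+ (0.43), Angpt2 in FUN025/FUN025 (-0.39) and Hif1a in FUN025/FUN025 (0.32) are filled.

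Per kilobase of exon, the scale on which different genes can be compared, Epas1 was highest in WT eyecups with a mean of 149 CPM per kilobase (SD 8.90, n = 4), followed by Serpinf1 at 145 (SD 25.9), Thbs1 at 113 (SD 33.5) and Vegfa at 102 (SD 6.70). Over WT mice, Vegfa (96.1 to 111) lay below Epas1 (137 to 157) and Serpinf1 (116 to 178), while Thbs1 (84.6 to 148) overlapped all of the others and Epas1 overlapped Serpinf1, so the order of those pairs was not resolved. Below them, Vegfb at 66.5 (SD 5.66), Hif1a at 44.5 (SD 4.98), Pgf at 22.8 (SD 1.35), Angpt1 at 11.9 (SD 1.57), Vegfc at 6.69 (SD 0.430) and Angpt2 at 3.42 (SD 0.478) were each separated from the next by more than the range over WT mice. In FUN025/FUN025 eyecups Thbs1 stood first at 164 CPM per kilobase (SD 36.7, n = 5), with mice between 119 and 205, which overlapped the range of Epas1 from 130 to 164. With the longest transcript in place of merged exons, Serpinf1 stood first in WT eyecups at 187. In CPM over all libraries, the 10 genes ranged from the 40.6th percentile of tested genes (Angpt2) to the 99.5th (Thbs1 and Epas1).

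**Figure D3:**
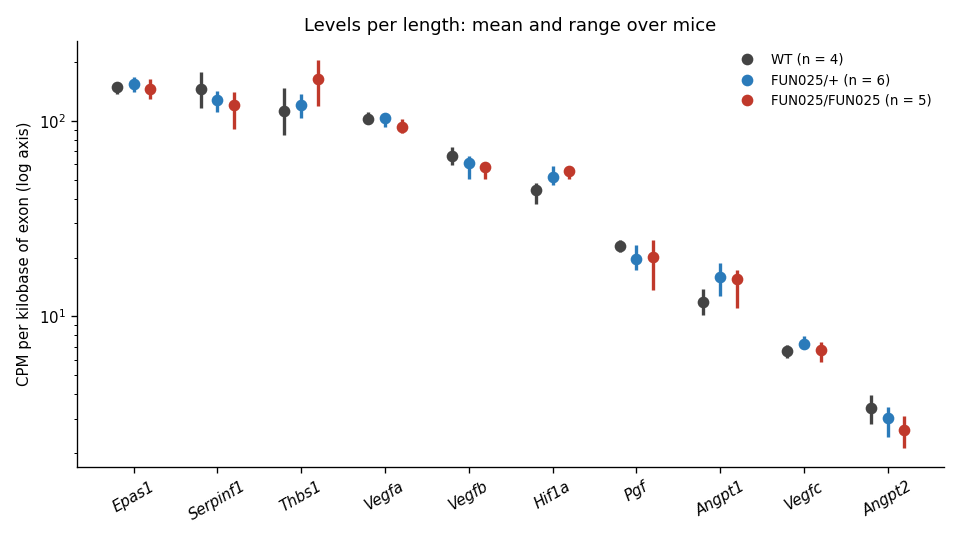
Level of each gene in CPM per kilobase of exon (log axis), as the mean (point) and range over mice (line) for each genotype, in the order of the WT means. The 4 genes on the left are near 100 CPM per kilobase or above in WT eyecups, where the range of Vegfa lies below those of Epas1 and Serpinf1 and within that of Thbs1, and Angpt2 is the lowest in every genotype.

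Among the VEGF family, Vegfa, the main driver of vessel growth, was 441, 412, 422 and 477 CPM in the WT mice. It was 401 to 472 CPM in FUN025/+ mice, with a median of 454, and 371, 381, 409, 391.9 and 437 CPM in FUN025/FUN025 mice. Of the 5 FUN025/FUN025 values, 4 lay below every WT value and 1 lay among them. The log2 fold change was 0.02 (SE 0.0604, adjusted p = 0.874) in FUN025/+ and -0.14 (SE 0.0627, adjusted p = 0.153) in FUN025/FUN025 against WT. Between the mutant genotypes the difference was -0.16 (95% interval -0.28 to -0.04, adjusted p = 0.526).

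Vegfb, a ligand of Flt1 linked to lipid uptake by endothelium, was 96.0, 107, 106 and 118 CPM in WT mice. It was 81.1 to 106 CPM (median 100.2) in FUN025/+ mice and 80.5, 97.7, 95.4, 96.0 and 95.7 CPM in FUN025/FUN025 mice. In FUN025/FUN025 mice 4 of the 5 values lay at or below the lowest WT value, FUN025/+ values overlapped those of WT, and mouse 1 was the lowest in each genotype, WT included. The log2 fold changes of -0.12 in FUN025/+ and -0.20 (95% interval -0.36 to -0.04) in FUN025/FUN025 did not pass the threshold, with adjusted p = 0.278 and 0.0871. Over 11 alternative fits (other scalings, tests, filters and covariates) the FUN025/FUN025 value ran from -0.219 to -0.0731. Vegfb was called in 1 of them, with the replicate number as a block (adjusted p = 0.0118).

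Vegfc, a ligand of Flt4 best known in lymphatic growth, was not called in any comparison. Its WT values were 14.97, 16.2, 16.9 and 17.4 CPM, the FUN025/+ values 16.7 to 19.5 (median 17.1) and the FUN025/FUN025 values 18.1, 16.1, 16.6, 14.3 and 17.0. The groups overlapped, and the 95% interval of the log2 difference from WT was -0.05 to 0.27 in FUN025/+ and -0.16 to 0.17 in FUN025/FUN025.

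Pgf, placental growth factor, which also binds Flt1, was 62.3, 65.6, 71.5 and 64.9 CPM in WT mice and 49.9 to 67.2 (median 56.3) in FUN025/+ mice. Below every WT value lay 5 of the 6 FUN025/+ values. The FUN025/FUN025 values spread more widely, at 61.1, 71.6, 65.1, 39.9 and 55.3 CPM, with a coefficient of variation of 20.6% against 5.93% in WT. The differences from WT, -0.21 in FUN025/+ (adjusted p = 0.27) and -0.17 in FUN025/FUN025 (adjusted p = 0.397) on the log2 scale, did not pass the threshold. Over the 11 alternative fits the FUN025/FUN025 value ran from -0.195 to -0.0482.

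The 7 receptors of these ligands were Flt1, Kdr, Flt4, Nrp1, Nrp2, Tek and Tie1. edgeR called 0 of 7 in FUN025/+ against WT, where 13.7% of all genes were called, and DESeq2 and limma voom also called 0. At an unadjusted p under 0.05 were 3 of 7 (28.8% of all genes), namely Flt1 and Tie1, lower, and Nrp1, higher. Nrp1 stood at log2 0.19 in FUN025/+ and 0.09 in FUN025/FUN025, Nrp2 at 0.11 and 0.07, and Flt4 at -0.13 and -0.20. In FUN025/FUN025 against WT edgeR called 2 of 7, both lower, where 7.02% of all genes were called lower. The median log2 fold change of the 7 was -0.04 in FUN025/+ and -0.20 in FUN025/FUN025. In FUN025/+ it was 0.056 with the replicate number as a block, where Nrp1 was called higher (adjusted p = 0.0232). With muscle and photoreceptor markers as covariates it was -0.256 there. In FUN025/FUN025 it was -0.116 with an offset for GC content. Flt1, which binds VEGF-A, VEGF-B and placental growth factor, was 210, 198, 218 and 207 CPM in WT mice and 182, 181, 169, 164 and 152 CPM in FUN025/FUN025 mice. Every FUN025/FUN025 value lay below every WT value, with a log2 fold change of -0.29 (SE 0.0651, adjusted p = 0.00584). Tie1, a partner of the angiopoietin receptor, was 134, 132, 149 and 151 CPM in WT and 117, 122, 116, 96.9 and 106 CPM in FUN025/FUN025 mice. These groups did not overlap either, and the log2 fold change was -0.34 (SE 0.0816, adjusted p = 0.011). Kdr, the main signalling receptor of VEGF-A, was lower in FUN025/FUN025 by a log2 difference of -0.34 that missed the threshold (adjusted p = 0.0599). It passed with DESeq2 (adjusted p = 0.0239) or only the genotypes compared (adjusted p = 0.031). It also passed with the replicate number as a block (adjusted p = 0.0122), but the labels do not say what that number stands for. Tek, the angiopoietin receptor Tie2, had -0.07 (adjusted p = 0.619). The Tie1 call was lost with an offset for GC content (adjusted p = 0.0624), and both calls were lost with muscle and photoreceptor markers as covariates (log2 -0.34, adjusted p = 0.106 for Flt1 and log2 -0.51, adjusted p = 0.0524 for Tie1), where the median of the 7 receptors was -0.337.

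Of 12 endothelium markers, 6 were lower in FUN025/+ (6.61% of all genes) and 9 were lower in FUN025/FUN025 against WT (7.02%), with median log2 fold changes of -0.20 and -0.36. Their summed level was 1229 to 1474 CPM in WT, 939 to 1270 in FUN025/+ and 864 to 1054 in FUN025/FUN025 mice, so that the FUN025/+ range overlapped that of WT and the FUN025/FUN025 range did not. In bulk tissue, fewer cells of a type and less RNA per cell cannot be told apart. The part of these markers in the levels of the receptors was not tested. With an offset for GC content the counts were 1 and 8 of 12 with medians of -0.192 and -0.337, and with marker covariates they were 3 and 6 of 12 with medians of -0.475 and -0.631. Without WT mouse 4 the count in FUN025/+ fell to 1 of 12 and that in FUN025/FUN025 to 6 of 12, and without WT mouse 3 they were 2 and 6.

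Angpt1, made mainly by cells around vessels, was 72.3, 52.8, 63.6 and 59.3 CPM in the WT mice. It was 66.6 to 97.7 CPM in FUN025/+ mice, with a median of 84.9, and 90.1, 87.9, 82.0, 57.9 and 84.8 CPM in FUN025/FUN025 mice. Above every WT value lay 5 of the 6 FUN025/+ and 4 of the 5 FUN025/FUN025 values, and the remaining mouse of each group lay among them. Angpt1 was 1.34-fold higher in FUN025/+ (log2 0.43, SE 0.129, adjusted p = 0.0408) and had a log2 fold change of 0.38 in FUN025/FUN025 (SE 0.133, adjusted p = 0.0729) against WT. The mutant genotypes differed by -0.05 with a 95% interval of -0.30 to 0.21. The FUN025/+ call was lost with an offset for GC content (log2 0.33, adjusted p = 0.103), with marker covariates (adjusted p = 0.575), without the filter on low counts (adjusted p = 0.106), and in 9 of the 15 fits that left out a mouse. The log2 fold change was 0.331 to 0.452 over the 11 other fits and 0.363 to 0.508 without a mouse. Angpt1 shared 737 exon bases with the antisense gene Gm17473, which had at most 240 counts, and the strand setting of the counting was not given in the sources used here.

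Angpt2, a product of endothelial cells, was the lowest of the 10 genes, with 12.9, 10.4, 12.4 and 14.7 CPM in the WT mice. It was 8.93 to 12.7 CPM (median 11.2) in FUN025/+ mice and 9.92, 7.85, 9.48, 11.4 and 9.62 CPM in FUN025/FUN025 mice. Below every WT value lay 4 of the 5 FUN025/FUN025 values, and 1 lay among them. Angpt2 fell by 23.5% in FUN025/FUN025 eyecups (log2 -0.39, SE 0.120, adjusted p = 0.0386), while in FUN025/+ the log2 fold change was -0.19 (adjusted p = 0.299). The call was lost with only the genotypes compared (adjusted p = 0.0579), with protein-coding genes alone (adjusted p = 0.0552), with marker covariates (adjusted p = 0.378), and in 7 of the 15 fits without a mouse. The log2 fold change was -0.417 to -0.363 over the 11 other fits and -0.457 to -0.305 without a mouse.

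The ratio of Angpt1 to Angpt2, on the scale of CPM per kilobase, was 3.97, 3.59, 3.62 and 2.85 in the WT mice. It was 4.24 to 6.29 (median 5.53) in FUN025/+ mice and 6.44, 7.94, 6.13, 3.59 and 6.25 in FUN025/FUN025 mice. Every FUN025/+ value lay above every WT value, and 4 of the 5 FUN025/FUN025 values did, the exception being mouse 4, which also had the lowest Angpt1. The ratio was formed after these values had been seen and was not tested.

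**Figure D4:**
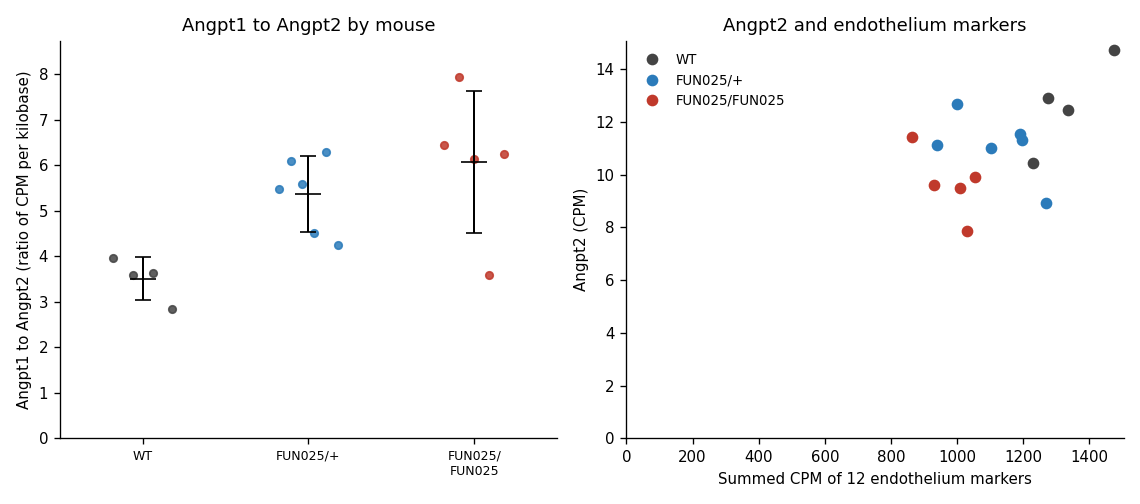
Left, ratio of Angpt1 to Angpt2 (CPM per kilobase over CPM per kilobase) in every mouse with the mean and SD by genotype. Right, Angpt2 (CPM) against the summed CPM of 12 endothelium markers in the same libraries; the 4 WT libraries lie at 1229 CPM of markers or more and the 5 FUN025/FUN025 libraries at 1054 or less.

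Of the inhibitors, Serpinf1, the gene of pigment epithelium-derived factor, was 419, 275, 358 and 320 CPM in WT mice. It was 262 to 335 CPM (median 297) in FUN025/+ mice and 331, 321, 289, 215 and 263 CPM in FUN025/FUN025 mice. The WT values themselves spanned most of the mutant values, and the log2 fold changes of -0.19 (adjusted p = 0.347) and -0.27 (95% interval -0.55 to 0.0024, adjusted p = 0.178) did not pass the threshold.

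Thbs1, thrombospondin 1, had the largest fitted difference of the 10 genes and also the widest spread among WT and among FUN025/FUN025 mice. The WT mice fell into a high and a low pair, at 897 and 829 CPM for mice 1 and 3 and 514 CPM for each of mice 2 and 4. FUN025/+ mice had 632 to 829 CPM (median 730), and FUN025/FUN025 mice had 886, 1206, 1245, 720 and 933 CPM. Above every WT value lay 3 of the 5 FUN025/FUN025 values. The log2 fold change was 0.09 (adjusted p = 0.778) in FUN025/+ and 0.54 (95% interval 0.11 to 0.96, adjusted p = 0.0856) in FUN025/FUN025 against WT, and 0.44 between the mutant genotypes (adjusted p = 0.676). Without WT mouse 1 or without FUN025/FUN025 mouse 4, Thbs1 passed the threshold in FUN025/FUN025, as it did with DESeq2 (adjusted p = 0.046). Thbs1 shared 208 exon bases with Gm29233, which had at most 1373 counts.

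Of 6 receptors for these inhibitors, 1 rose and 1 fell in each mutant genotype against WT, where 7.09% of all genes rose and 6.61% fell in FUN025/+ and 7.03% and 7.02% in FUN025/FUN025. Lrp6, a Wnt co-receptor, rose by 0.32 (adjusted p = 0.00536) in FUN025/+ and by 0.27 (adjusted p = 0.0164) in FUN025/FUN025 on the log2 scale, with no overlap with WT in either. The Lrp6 calls were lost with marker covariates (log2 0.3351 and 0.293, adjusted p = 0.202 and 0.168) and, in FUN025/FUN025, without WT mouse 4 (adjusted p = 0.0575). Pnpla2, a triglyceride lipase that also binds the product of Serpinf1, fell by 0.20 (adjusted p = 0.0263) and by 0.27 (adjusted p = 0.00646) on the log2 scale. Its call in FUN025/+ was lost in 3 of the 15 fits without a mouse and in 3 of 11 others, with log2 fold changes down to -0.1132 with the GC offset, and its call in FUN025/FUN025 was lost in 2 of 11 others. Among 20 other inhibitors of angiogenesis, edgeR called 0 in FUN025/+ (2 at an unadjusted p under 0.05, and 0 by DESeq2 or limma voom) and 1 in FUN025/FUN025, Sema3f, a semaphorin that binds neuropilins, at -0.26 on the log2 scale (adjusted p = 0.0151). DESeq2 and limma voom each called 2 of the 20 in FUN025/FUN025 against WT, and the Sema3f call was lost with the GC offset (log2 -0.1573, adjusted p = 0.139), with marker covariates (log2 -0.2705, adjusted p = 0.213) and without WT mouse 3. Among 24 other angiogenic ligands, 1 was lower in FUN025/+ (6.61% of all genes) and 3 were lower in FUN025/FUN025 (7.02%). The latter were Pdgfb, which recruits pericytes (log2 -0.41, adjusted p = 0.0194), Bmp4 (-0.42, adjusted p = 0.0325) and Tgfb1 (-0.32, adjusted p = 0.0383), and Pdgfb was the one lower in FUN025/+ (-0.33, adjusted p = 0.0416). In FUN025/FUN025 the calls of Bmp4 and Tgfb1 were each lost in 6 of the 15 fits without a mouse and that of Pdgfb in 2, and of 11 other fits Tgfb1 lost its call in 4, Bmp4 in 2 and Pdgfb in 2. The Pdgfb call in FUN025/+ was lost in 8 of the 15 and in 6 of the 11.

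Hif1a, the hypoxia-inducible subunit found in most cell types, was 285, 284, 260 and 222 CPM in the WT mice. It was 278 to 348 CPM in FUN025/+ mice, with a median of 302, and 297, 342, 340, 323 and 332 CPM in FUN025/FUN025 mice. Every FUN025/FUN025 value lay above the highest WT value, and 5 of the 6 FUN025/+ values did. Hif1a was 1.24-fold higher in FUN025/FUN025 than in WT eyecups (log2 0.32, SE 0.0760, 95% interval 0.16 to 0.47, adjusted p = 0.0106), and in FUN025/+ the log2 fold change was 0.22 (SE 0.0732, adjusted p = 0.053). The mutant genotypes differed by 0.10 (95% interval -0.05 to 0.24, adjusted p = 0.9996). The FUN025/FUN025 call held in all 11 other fits and in each of the 15 fits without a mouse, with log2 fold changes of 0.24 to 0.53 and 0.24 to 0.36. By number of mutant alleles, limma's trend gave 0.16 log2 units per allele with an adjusted p of 0.0173, short of the threshold of 0.01, and 0 of the 10 genes passed it, 7 having an unadjusted p under 0.05, beside 2.14% of all genes past the threshold and 24.8% at that unadjusted p. Hif1a shared 330 exon bases with the antisense gene Gm15283, which had at most 785 counts against 3393 to 5270 for Hif1a. It shared 148 more with Gm49321, a protein-coding gene on the same strand that had 0 counts in every library.

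Epas1, the subunit enriched in endothelium, had the highest mean level per kilobase of merged exons in WT and FUN025/+ eyecups (the second highest, after Serpinf1, with the longest transcript) and was not called in any comparison. Its values were 866, 769, 877 and 818 CPM in WT mice, 789 to 936 (median 865) in FUN025/+ mice and 784, 915, 858, 728 and 793 in FUN025/FUN025 mice. The groups overlapped throughout, with a 95% interval of the log2 difference from WT of -0.08 to 0.19 in FUN025/+ and -0.17 to 0.11 in FUN025/FUN025. On the scale of CPM per kilobase, the ratio of Hif1a to Epas1 was 0.257 to 0.350 in WT and 0.354 to 0.421 in FUN025/FUN025 mice, without overlap, while FUN025/+ mice (0.305 to 0.418) overlapped both. This ratio was not tested.

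Calls among the genes around the HIF subunits were near the share of all genes, which was 13.7% in FUN025/+ and 14.0% in FUN025/FUN025 against WT. Of 11 oxygen sensing genes and HIF partners, 1 was lower in each mutant genotype: Egln2, a prolyl hydroxylase that marks HIF subunits for degradation, at -0.19 in FUN025/+ (adjusted p = 0.041) and -0.23 in FUN025/FUN025 (adjusted p = 0.0175) on the log2 scale. The Egln2 call in FUN025/+ was lost in 6 of the 15 fits without a mouse and in 4 of 11 others, and that in FUN025/FUN025 in 2 (without WT mouse 3 or 4) and in 2. With the GC offset, where both were lost, its log2 fold changes were -0.0738 and -0.1188. Of 36 HIF target genes, 1 was higher and 4 lower in FUN025/+, and 2 were higher and 4 lower in FUN025/FUN025, with median log2 fold changes of -0.05 and -0.09, beside 7.09% of all genes called higher and 6.61% lower in FUN025/+ and 7.03% and 7.02% in FUN025/FUN025. With marker covariates 0 were called in FUN025/+ and 1 in each direction in FUN025/FUN025, and the medians turned to 0.10 and 0.062. In FUN025/FUN025 the count was also 1 in each direction without WT mouse 2 or WT mouse 4. There 4 were higher and 4 lower with DESeq2, and 4 were higher and 2 lower with protein-coding genes alone or without WT mouse 1. In FUN025/+ 3 were higher and 4 lower without FUN025/+ mouse 1. There 1 was higher and 2 lower without WT mouse 4, and 1 higher and 6 lower without FUN025/+ mouse 5. Both directions were found among glycolytic genes: Hk2, hexokinase 2, stood at -0.58 in FUN025/+ (adjusted p = 0.00503) and -0.53 in FUN025/FUN025 (adjusted p = 0.0108) on the log2 scale, while Pgk1, phosphoglycerate kinase 1, was 276, 261, 261 and 276 CPM in WT and 300 to 331 CPM in FUN025/FUN025 mice (log2 0.22, adjusted p = 0.015). Ero1a, an oxidase of the endoplasmic reticulum, was higher (0.32 and 0.25), and P4ha2, a collagen prolyl hydroxylase (-0.43 and -0.39), and Higd1a, a mitochondrial protein (-0.16 and -0.14), were lower. In FUN025/FUN025 the call of Higd1a was lost in 9 of the 15 fits without a mouse and 6 of 11 others, that of Ero1a in 5 and 2, and that of P4ha2 in 3 (without WT mouse 2, 3 or 4) and 1. In FUN025/+ the call of Higd1a was lost in 1 and 3, and those of Ero1a and P4ha2 in 0 and 1, the latter with marker covariates. Of 11 immediate early genes, edgeR, DESeq2 and limma voom called 0 in each comparison. At an unadjusted p under 0.05 were 0 of the 11 in each. The share of all genes there was 28.8% in FUN025/+ and 28.6% in FUN025/FUN025 against WT, and 6.23% between the mutant genotypes. The summed level of the 11 spread widely, at 273 to 374 CPM in WT, 211 to 432 in FUN025/+ and 243 to 448 in FUN025/FUN025 mice. The summed striated muscle markers were 5856 to 10810 CPM in WT, 3143 to 8072 CPM in FUN025/+ and 4786 to 5870 CPM in FUN025/FUN025 mice, with 3 of 12 markers called lower in each mutant genotype. With muscle and photoreceptor markers as covariates the Hk2 difference was 0.0039 in FUN025/+ and -0.0432 in FUN025/FUN025 on the log2 scale, and the part of muscle RNA in it was not tested beyond this fit.

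GC content moved with the differences from WT. The median log2 fold change over all genes went from 0.085 in the lowest of 4 equal GC classes to -0.093 in the highest in FUN025/+. In FUN025/FUN025 it went from 0.072 to -0.095. Angpt1 (39.3% GC), Hif1a (41.3%) and Vegfc (44.9%, with a log2 difference of 0.0048 in FUN025/FUN025) lie in the lowest class and Vegfb (62.6%) and Pgf (56.3%) in the highest. With an offset for GC content, Hif1a was still called in FUN025/FUN025, at a log2 fold change of 0.24 (adjusted p = 0.0258).

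**Figure D5:**
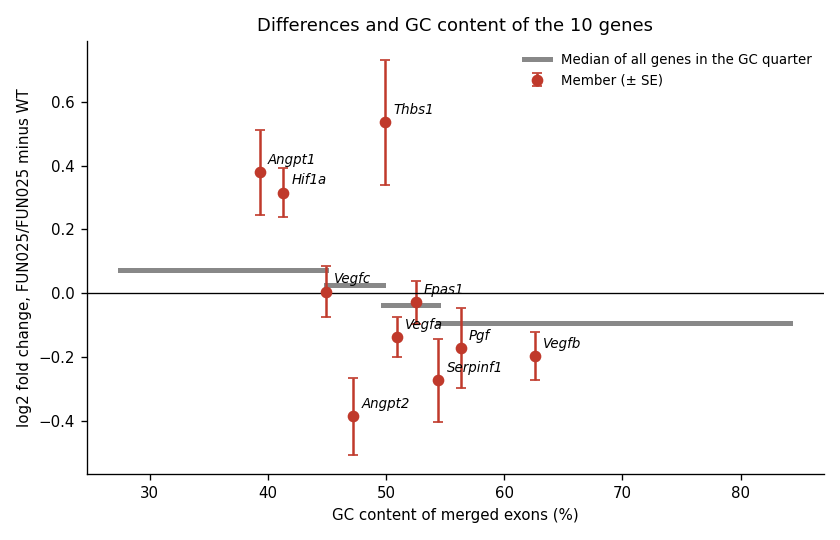
Log2 fold change in FUN025/FUN025 against WT (y axis, ± SE) against GC content (x axis, percent) for the 10 genes. The GC content is that of the longest transcript, although the axis label names merged exons. Grey bars are the median over all genes in each of 4 GC classes. The bars step from 0.072 to -0.095, and Angpt1, Hif1a and Thbs1 lie above their bar by more than their SE.

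Within genotypes, the levels of some of these genes went up and down with marker genes across the 15 libraries. After the genotype mean was removed, Serpinf1 followed the mean of 7 fibroblast markers (Pearson r = 0.927, adjusted p = 0.001; Spearman rho = 0.918, adjusted p = 0.003; permutation within genotype), as did Angpt1 (r = 0.851, adjusted p = 0.0045; rho = 0.861, adjusted p = 0.013). Vegfa followed 13 pigment epithelium markers (r = 0.813, adjusted p = 0.0467; rho = 0.746, adjusted p = 0.173). Without the 2 libraries farthest from the median marker level, r was 0.925, 0.783 and 0.821. Summed fibroblast markers were 5661 to 7902 CPM in WT, 5699 to 6803 in FUN025/+ and 4886 to 6898 in FUN025/FUN025 mice, and their part in the levels of Serpinf1 and Angpt1 was not tested. These were 3 of 100 relations tested by permutation, after the coefficients had been seen, and the raw p of r was 1e-05, 9e-05 and 0.0014, the first being the smallest the permutations can give. For Angpt2 and the 12 endothelium markers, another of the 100, the relation within genotypes had a negative sign and did not pass (r = -0.309, adjusted p = 0.719; rho = -0.243, adjusted p = 0.791, by permutation; r = -0.168 without the 2 farthest libraries).

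Among the 10 genes, Angpt1 and Serpinf1 were the pair most alike in this sense (r = 0.882 over 15 libraries). Among 14467 protein-coding genes searched, the one most alike was Nmnat1 for Vegfb (r = 0.907), Tmem9b for Vegfc (0.877), Sost for Pgf (0.902) and Sorcs2 for Angpt1 (0.922). It was Capzb for Angpt2 (r = 0.873), Adamts2 for Serpinf1 (0.952), Odc1 for Thbs1 (0.940), Dennd4a for Hif1a (0.900) and Fam198b for Epas1 (0.913). These are the highest of many coefficients and carry no test, and the libraries share depth and tissue composition.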

How the data were processed

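RNA of posterior eyecups of 15 mice was sequenced by the authors after poly(A) selection, with the eyecups of each mouse pooled into 1 library, and the deposited files hold raw read counts per Ensembl gene. The submitters' processing notes name FastQC 0.11.8, Trimmomatic 0.39, HISAT2 2.1.0, SAMtools, featureCounts 2.0.0 and GRCm38, and the strand setting and the treatment of reads with several matches were not given in the sources used here. Libraries were grouped by their genotype labels. As the paper describes, genes were first filtered by variance, dropping the lowest 15% (47108 of 55421 left). edgeR's filterByExpr then left 18979 genes. Positions, exon lengths and GC content (that of the longest transcript of each gene) came from GENCODE M21, which held 55240 of the listed genes.

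Counts were scaled by TMM (factors 0.976 to 1.02) and tested with edgeR 4.0.16 (quasi-likelihood, robust, all 15 libraries in 1 fit) at a Benjamini-Hochberg adjusted p under 0.05 over all genes. The number of mutant alleles was fitted with limma 3.58.1 on log2 CPM (prior count 2) at an FDR of 0.01. CPM use the TMM-scaled total. R 4.3.3, DESeq2 1.42.0, Python 3.11.15, numpy 2.4.6 and pandas 2.3.3 were used, and the fits were tested on simulated data. Nothing says that the mice came from separate litters, so p-values measure the spread between these mice.

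The 10 genes and all gene lists were chosen with earlier results of these data known. Genes named beyond the 10 are their 7 receptors, Tmem135, up to 6 genes of each of 6 pathway lists with the smallest adjusted p under 0.05, and the genes most alike in pattern, of which that for Vegfa is not reported here. Alternatives were other scalings, tests, filters, covariates (striated muscle, rod and cone markers), the replicate number as a block, and leaving out each mouse. A fit on protein-coding genes alone, the GC offset, the correlations with marker lists and the alternatives for genes other than the 10 were added after the data had been seen. Promoter windows came from RefSeq.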

Additional observations from a re-analysis of the deposited data

Results flagged for a closer look

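In 93 groups of 1 gene in 1 genotype, 4 libraries stood apart from the rest of their group by Dixon's criterion, which flags about 1 group in 20 by chance. Vegfb was 81.1 CPM in FUN025/+ mouse 1 against 99.3 CPM or more in the other mice of that genotype, and 80.5 CPM in FUN025/FUN025 mouse 1 against 95.4 CPM or more. Angpt1 was 57.9 CPM in FUN025/FUN025 mouse 4 against 82.0 CPM or more in the others. Flt4 was 45.8 CPM in WT mouse 4 against 40.6 CPM or less in the others.

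The effect of FUN025/FUN025 differed from that of FUN025/+ for Bhlhe40, a HIF target and transcriptional repressor, by 0.24 on the log2 scale (edgeR, adjusted p = 0.0161). The call was lost without FUN025/+ mouse 2 (adjusted p = 0.0514) and held in the other 14 fits without a mouse and in 11 other fits. Bhlhe40 was 183 to 199 CPM in WT, 173 to 187 CPM in FUN025/+ and 197 to 237 CPM in FUN025/FUN025 mice, and the mutant genotypes did not overlap.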

How the results depend on the processing

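Total counts of WT libraries exceeded those of all mutant libraries, so depth and genotype cannot be told apart, and the design had 4 to 6 mice per genotype. Members called in FUN025/+ against WT were 2 with DESeq2, limma voom or protein-coding genes alone (Angpt1 and Hif1a) and 0 with marker covariates or an offset for GC content. Of all genes, DESeq2 called 2983, limma voom 2792 and the fit of protein-coding genes 1828 there. In FUN025/FUN025 against WT they were 4 with DESeq2 (Angpt1, Angpt2, Thbs1, Hif1a) beside 3039 of all genes, and 1 (Hif1a) with only the genotypes compared, marker covariates or protein-coding genes alone. Leaving out each mouse gave 0 to 2 and 1 to 4 members, and 0 to 1 by number of alleles. For all genes it gave 1446 to 2722 and 1528 to 2701 called, the lowest without WT mouse 4 (2600 and 2666 with all mice), and marker covariates gave 268 and 712. DESeq2 called 171 of all genes between the mutant genotypes, against 99. The causes were not tested.

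Same-numbered mice were not pairs: correlations of their deviations ran from -0.385 to 0.133, and a library matched its own number best in 2 of 26 cases. With the replicate number as a block, members called in FUN025/FUN025 against WT became 4 (Vegfb, Angpt1, Angpt2, Hif1a), while 2137 of all genes were called in that fit, the 1 in FUN025/+ stayed Angpt1, Vegfa in FUN025/+ was -0.0145 and Kdr 0.0561, Kdr was called lower in FUN025/FUN025 against WT (adjusted p = 0.0122) and against FUN025/+ (adjusted p = 0.0206), and 1 endothelium marker was lower in FUN025/+.

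Signs turned for small log2 differences that were not called. With marker covariates in FUN025/+ these were Vegfa (-0.0028), Vegfb (0.0273), Vegfc (-0.1161), Nrp2 (-0.3157) and Tek (-0.2789), besides Hk2 (0.0039), which had been called, and in FUN025/FUN025 Vegfc (-0.1852), Epas1 (0.0251) and Nrp2 (-0.2815). With the GC offset these were Sema3f in FUN025/+ (0.0192) and Vegfc (-0.044) and Epas1 (0.0098) in FUN025/FUN025. Leaving out a mouse gave ranges across 0 for Vegfa (-0.0027 to 0.0619), Thbs1 (-0.0223 to 0.2483) and Kdr (-0.0856 to 0.0299) in FUN025/+, for Vegfc (-0.0358 to 0.0504) and Epas1 (-0.0741 to 0.0088) in FUN025/FUN025, and for Pgf (-0.0452 to 0.147) and Angpt1 (-0.104 to 0.0501), besides Flt4 (-0.135 to 0.0133), Nrp2 (-0.0947 to 0.013) and Hk2 (-0.023 to 0.102), between the mutant genotypes. By number of alleles it did so for Vegfc (-0.0292 to 0.0252) and Epas1 (-0.0373 to 0.00397). Per kilobase of the longest transcript, WT levels were 187 for Serpinf1, 127 for Vegfa, 83.3 for Vegfb, 55.6 for Hif1a, 31.8 for Pgf and 14.6 for Angpt1. Among fits of the members between genotypes, with those of Hif1a by number of alleles, 735 kept direction and side of the threshold, 21 turned sign, 19 gained and 22 lost a call.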
